A study of Mus musculus with 21 samples.

Results

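The genes described here encode the parts and assembly factors of respiratory complexes II to V of the inner mitochondrial membrane, as measured in hearts that lack tafazzin. They were taken by symbol: every row whose name begins Sdh, Uqc, Cox followed by a digit, or Atp5, without Cox4i1, Cox4i2, Cox6a1, Cox6a2, Cox7a1, Cox7a2, Cox8a and Cox8b. This gave 53 of the 14732 genes in the table, of which 8 belong to complex II, 11 to complex III, 17 to complex IV and 17 to complex V. By role, 35 are subunits and 18 are assembly or other factors. All 53 are protein-coding, and all 53 passed the filter on low counts.

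Poly(A) RNA from heart ventricles of 2-month-old male mice was sequenced in 21 libraries. The KO groups carried a Taz knockout on their single X chromosome (TAZ KO/Y) and the WT groups were littermates with an intact gene (WT/Y). There were 4 KO and 4 WT libraries from BL6J mice (C57/J in the series' design), 3 KO and 4 WT libraries from AJ-F1 mice, and 3 KO and 3 WT libraries from CAST-F1 mice. The labels give no driver, clone or second allele, and whether libraries of a group come from different mice is not stated, so that p-values here refer to variation from library to library. Tafazzin remodels the acyl chains of cardiolipin, a phospholipid of the membrane in which the respiratory complexes sit. Mutations of the human gene cause Barth syndrome, in which the heart muscle is weak.

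Complex II (succinate dehydrogenase) passes electrons from succinate to coenzyme Q, complex III passes them on to cytochrome c, and complex IV (cytochrome c oxidase) hands them to oxygen. Complexes III and IV pump protons, and complex V (ATP synthase) lets the protons flow back and makes ATP. Complexes III, IV and V also hold subunits encoded by mitochondrial DNA, which are not among these genes, and each complex needs factors that insert its cofactors or build its modules.

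Taz stood at 5.51 to 6.07 CPM in BL6J KO libraries against 41.9 to 47.4 CPM in BL6J WT. It stood at 1.48 to 3.77 CPM in AJ-F1 KO against 48.5 to 61.0 CPM in AJ-F1 WT. In CAST-F1 it stood at 1.07 to 2.60 CPM in KO against 36.5 to 56.2 CPM in WT. Each library thus followed its KO or WT label, and the labels of background were not checked. CPM are counts scaled to a common library size, with edgeR's TMM factors. Libraries held 3848172 to 10738130 counts. Of 10 cardiomyocyte markers 10 were detected, and they added up to 70881 to 79003 CPM in BL6J KO against 92386 to 106918 CPM in BL6J WT, to 70866 to 77762 CPM in AJ-F1 KO against 90667 to 99591 CPM in AJ-F1 WT, and to 73203 to 83211 CPM in CAST-F1 KO against 80525 to 108138 CPM in CAST-F1 WT. The number of them that passed the test as lower was 5 in BL6J, 4 in AJ-F1 and 5 in CAST-F1, with 1 higher in CAST-F1. Their part in the changes below was not tested, and in bulk tissue fewer cells of a type and less RNA per cell cannot be told apart. Exons of 13 of the 53 genes overlapped exons on the opposite strand and those of 3 overlapped exons on the same strand. Whether counting used the strand is not given in the sources used here, so reads of such pairs cannot be told apart.

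Short motifs were searched in the 250 bases before the RefSeq transcription start (GRCm38.p6), on both strands, for the 42 genes with a RefSeq promoter. The ETS motif CCGGAAG, of the type bound by GABP, was in 13 of 42 promoters (31.0%), against 15.5% of the 9681 promoters of all genes tested. The NRF1 core, GCGCA and GCGC with 1 free base between them, was in 7 of 42 (16.7%) against 9.17% of all, and the YY1 motif AAGATGGC in 2 (4.76%) against 2.32%. CCAAT was in 20 (47.6%) against 40.2% of all promoters, TATAAA in 2 (4.76%) against 8.07%, and TGATGNAA, the C/EBP-ATF response element, in 0 of 42 against 2.45%. GABP and NRF1 are textbook regulators of nuclear genes for respiratory proteins. Stretches of 4 promoters are shown because these genes carry such a motif and differ in what they did in KO hearts. Uqcr11 and Atp5h passed the test as lower in all 3 backgrounds, and Sdhd and Cox10 in none. The promoters of Atp5h and Sdhd also hold an ETS motif, which is not printed. For these genes the bases shortly after the RefSeq start were not found in a GENCODE transcript, so the start is less certain. The lines run 5′ to 3′ on the strand of the gene, which is the minus strand for all of them, and capitals mark the motif with the bases around it in lower case.
Uqcr11, ETS motif, chr10:80406861-80406907: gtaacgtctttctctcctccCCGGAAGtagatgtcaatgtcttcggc
Atp5h, NRF1 core, chr11:115420031-115420080: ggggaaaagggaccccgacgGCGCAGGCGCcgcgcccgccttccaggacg
Sdhd, NRF1 core, chr9:50603899-50603948: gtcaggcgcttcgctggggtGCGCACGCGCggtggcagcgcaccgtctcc
Cox10, ETS motif, chr11:64079473-64079519: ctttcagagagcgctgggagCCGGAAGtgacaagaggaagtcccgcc

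Motif and change can be set side by side. Of the 8 genes that passed as lower in all 3 backgrounds and have a promoter in the table, 3 held the ETS motif and 2 the NRF1 core. Of the 22 that passed as lower in no background, 5 held the ETS motif and 4 the NRF1 core. Cox19 and Uqcrfs1, which changed in all 3 backgrounds in opposite directions, held none of the 6 motifs in this window.

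The comparison of KO with WT hearts asked whether loss of tafazzin changed the transcripts of these complexes. Many subunit transcripts fell in KO hearts and no subunit rose, while 2 assembly factors of complex IV rose. In BL6J, 15 of the 53 genes fell (28.3%), against 9.51% of the 12333 genes tested, and 2 rose, against 12.8% of all genes. In AJ-F1, 23 fell (43.4%), against 15.7% of all genes, and 1 rose, against 12.9%. In CAST-F1, 9 fell (17.0%), against 9.59%, and 2 rose, against 10.7%. A gene is said to fall or to rise where edgeR's quasi-likelihood test gave a p below 0.05 after Benjamini-Hochberg adjustment over all 12333 genes. Averaged over the 3 backgrounds, 29 fell (54.7%), against 24.2% of all genes, and 3 rose (5.66%), against 23.7%. Counting both directions, 17 genes changed in BL6J (32.1%, against 22.3% of all genes) and 24 in AJ-F1 (45.3%, against 28.5%). The count was 11 in CAST-F1 (20.8%, near the 20.3% of all genes) and 32 in the mean (60.4%, against 47.9%).

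The median log2 fold change of the 53 genes was -0.14 in BL6J, -0.35 in AJ-F1 and -0.17 in CAST-F1, beside medians of all genes of 0.01, 0.01 and -0.02. Without overlap between KO and WT libraries, 16 genes were lower in BL6J (30.2%, against 12.9% of all genes). In AJ-F1 17 were (32.1%, against 14.9%), and in CAST-F1 17 (32.1%, against 22.6%). The reverse order, with every KO library above every WT library, was found for 2 genes in BL6J (3.77%, against 15.5% of all genes). It was found for 2 in AJ-F1 (3.77%, against 14.1%) and 4 in CAST-F1 (7.55%, against 24%). The call counts depended on the fit. With only the AJ-F1 libraries in it, 7 of the 53 passed in AJ-F1. With only the CAST-F1 libraries, 19 passed in CAST-F1. Shares of all genes in these fits are not given here. Of the 52 calls in single backgrounds, 19 held under every alternative that gave a value. There were 29 of these, or 28 for Cox6b2 in BL6J, which did not pass the low-count filter with only the BL6J libraries. The calls that held include all KO against WT calls of Uqcrfs1, Cox6c, Cox19 and Cox6b2, and those of Atp5k in AJ-F1 and CAST-F1. They also include those of Uqcr11 in AJ-F1 and of Uqcc1, Sdhc and Atp5a1 in BL6J. Cox6b2, counted among the falls in BL6J and AJ-F1, passed the low-count filter through WT libraries alone.

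Subunits and factors were counted apart. Among the 35 subunits, 13 fell and 0 rose in BL6J (median log2 fold change -0.26), 19 fell and 0 rose in AJ-F1 (-0.43), and 8 fell and 0 rose in CAST-F1 (-0.24). Among the 18 factors, 2 fell and 2 rose in BL6J (0.09), 4 fell and 1 rose in AJ-F1 (-0.02), and 1 fell and 2 rose in CAST-F1 (0.01). Of all genes tested, 9.51% fell and 12.8% rose in BL6J, 15.7% and 12.9% in AJ-F1, and 9.59% and 10.7% in CAST-F1. The counts by complex below stand beside the same shares.

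**Figure D1:**
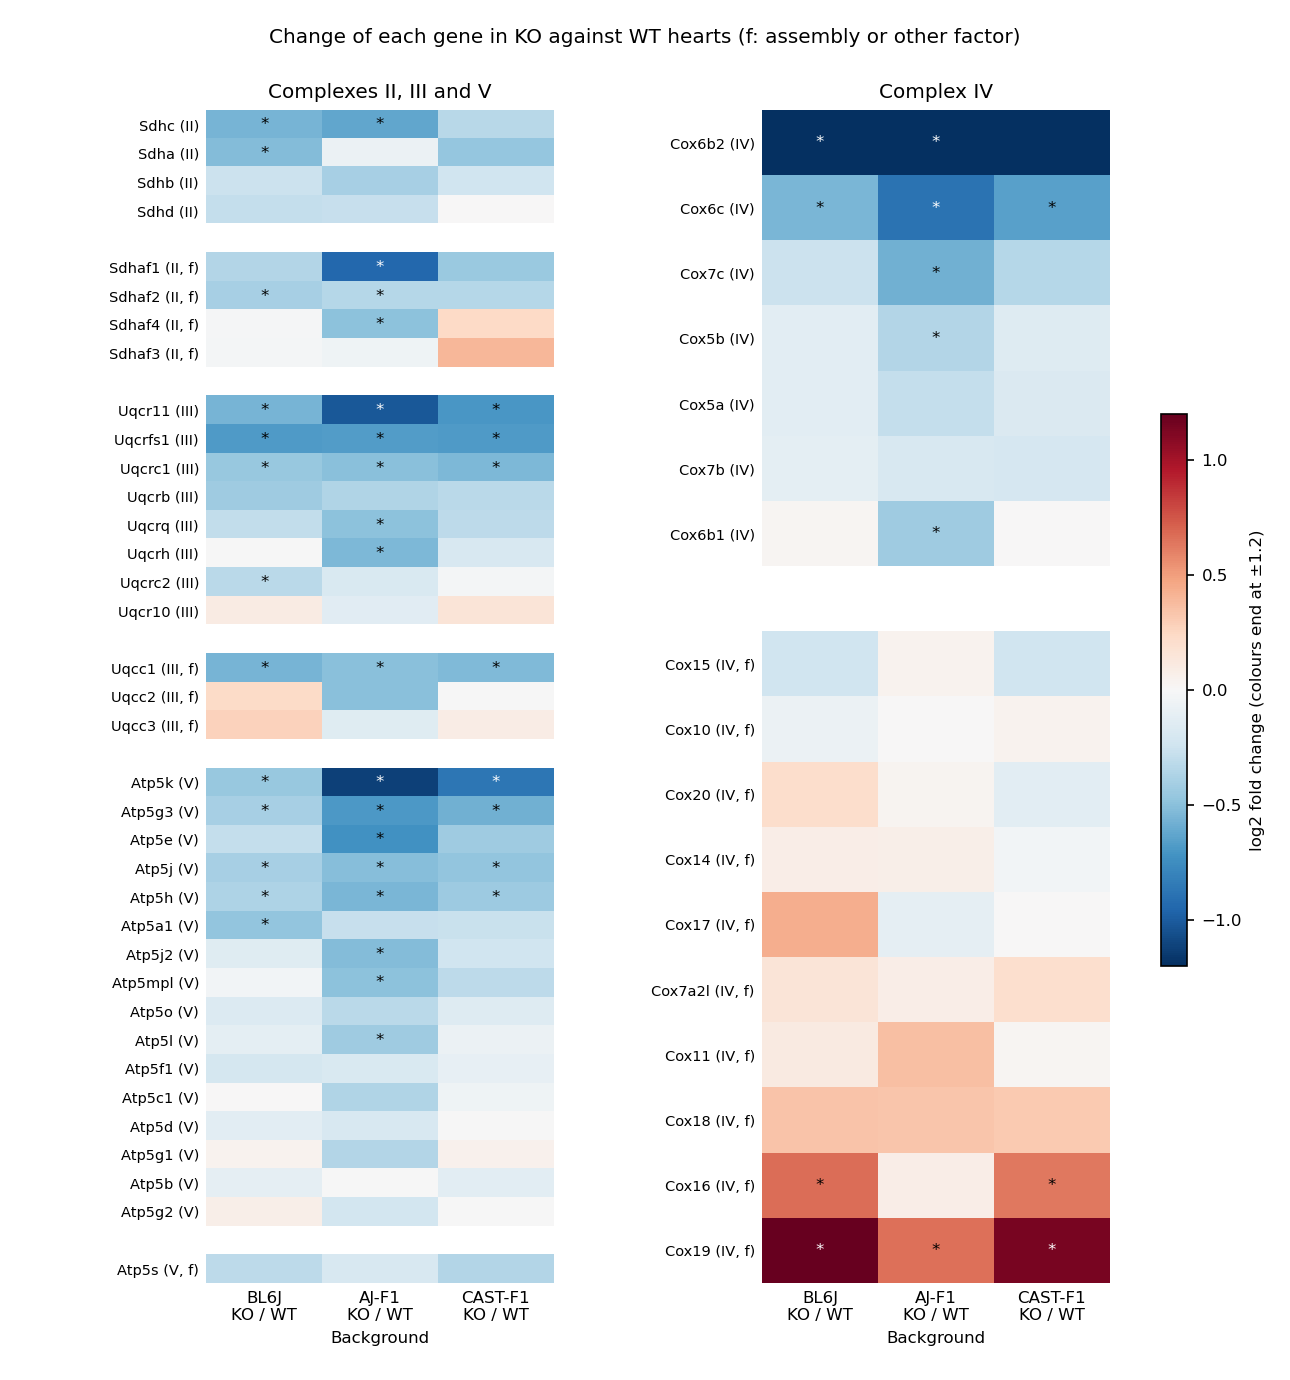
Log2 fold change of each gene in KO against WT hearts (colour, ending at ±1.2) by background, with genes grouped by complex and by kind (f marks assembly or other factors) and a star where edgeR's adjusted p was below 0.05. Stars on blue prevail among subunits, and the stars on red all belong to the complex IV factors Cox16 and Cox19; Cox6b2 goes beyond the colour scale.

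Complex II had 2 of its 4 subunits fall in BL6J, 1 in AJ-F1 and 0 in CAST-F1. Sdhc, a membrane anchor that binds heme and coenzyme Q (chromosome 1, 171127165 to 171150603, minus strand, GRCm38), had 339, 310, 301 and 313 CPM in BL6J KO libraries, against 467, 473, 457 and 464 CPM in BL6J WT. It had 362, 404 and 337 CPM in AJ-F1 KO libraries, against 428, 484, 728 and 619 CPM in AJ-F1 WT. In CAST-F1 it had 361, 339 and 304 CPM in KO, against 418, 453 and 391 CPM in WT. Every KO library lay below every WT library of its background. Sdhc fell by 0.56 ± 0.13 on the log2 scale in BL6J and by 0.62 ± 0.15 in AJ-F1 (± SE; edgeR adjusted p = 0.0037 and 0.0033), and its change of -0.33 ± 0.15 in CAST-F1 did not pass (adjusted p = 0.14).

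Sdha, the flavoprotein that oxidises succinate, had 596, 643, 783 and 657 CPM in BL6J KO, against 922, 871, 1004 and 1049 CPM in BL6J WT. Its AJ-F1 levels were 783, 657 and 808 CPM in KO, against 744, 1141, 538 and 730 CPM in WT. The KO and WT libraries were apart in BL6J and mixed in AJ-F1. Sdha fell in BL6J (-0.52 ± 0.16, edgeR adjusted p = 0.024), with changes of -0.07 ± 0.18 in AJ-F1 and -0.47 ± 0.19 in CAST-F1 that did not pass (adjusted p = 0.78 and 0.087). Sdhb, the iron-sulfur subunit, and Sdhd, the other anchor, passed in no background, with changes between -0.40 and 0.00. Among the factors, Sdhaf1, which serves the iron-sulfur subunit, fell in AJ-F1 to 21.9 ± 2.73 CPM in KO (SD, n = 3) against 42.0 ± 9.85 CPM in WT (n = 4), a change of -0.94 ± 0.18. Sdhaf2, which helps to attach flavin to Sdha, fell in BL6J (-0.39 ± 0.12) and AJ-F1 (-0.34 ± 0.13). Sdhaf4, another factor of the flavoprotein, passed narrowly in AJ-F1 (-0.49 ± 0.19), and Sdhaf3 passed in none. The Sdha call in BL6J was lost without BL6J KO library 1 or 4 or BL6J WT library 3 or 4 (adjusted p of 0.058 to 0.077), and the Sdhc call in AJ-F1 with only the AJ-F1 libraries in the fit (0.099). Sdhaf4 was lost under 20 alternatives and Sdhaf2 in AJ-F1 under 18. The exons of Sdhaf1, Sdhaf2 and Sdhaf4 overlap exons on the opposite strand.

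Of the 8 subunits of complex III among the 53, 4 fell in BL6J, 5 in AJ-F1 and 3 in CAST-F1. The 3 of CAST-F1 fell in every background. Uqcrfs1, the Rieske iron-sulfur protein that moves electrons to cytochrome c1 (chromosome 13, 30540308 to 30545362, minus strand), had 479, 402, 427 and 421 CPM in BL6J KO libraries, against 690, 725, 709 and 651 CPM in BL6J WT. It had 500, 448 and 400 CPM in AJ-F1 KO, against 690, 678, 720 and 773 CPM in AJ-F1 WT. The CAST-F1 levels were 516, 510 and 496 CPM in KO, against 816, 922 and 694 CPM in WT. No KO library of any background reached the lowest WT library of the series. The fall was nearly the same size in each background: -0.68 ± 0.11 in BL6J, -0.67 ± 0.12 in AJ-F1 and -0.68 ± 0.12 in CAST-F1 (edgeR adjusted p = 6.6e-05, 0.00023 and 0.00042).

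Uqcr11, the smallest subunit of the complex and the gene whose ETS motif is printed above, had 445, 389, 492 and 488 CPM in BL6J KO libraries, against 699, 770, 647 and 551 CPM in BL6J WT. In AJ-F1 it had 540, 421 and 423 CPM in KO, against 891, 661, 1136 and 1043 CPM in WT. In CAST-F1 it had 422, 482 and 509 CPM in KO, against 857, 843 and 590 CPM in WT. The KO levels lay in a narrow band in all 3 backgrounds, while WT levels spread more widely in AJ-F1 and CAST-F1. Uqcr11 fell by 0.56 ± 0.16 in BL6J, by 1.02 ± 0.18 in AJ-F1 and by 0.70 ± 0.19 in CAST-F1 on the log2 scale (edgeR adjusted p = 0.015, 0.00025 and 0.01).

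Uqcrc1, a core protein that faces the matrix, averaged 1206 ± 112 CPM in BL6J KO and 1657 ± 85.0 CPM in BL6J WT (SD, n = 4 each). It had 1342, 1418 and 1309 CPM in AJ-F1 KO, against 1374, 1438, 2607 and 2237 CPM in AJ-F1 WT, so that these groups overlapped. Its falls of 0.46 ± 0.16, 0.50 ± 0.17 and 0.54 ± 0.18 on the log2 scale in BL6J, AJ-F1 and CAST-F1 passed only narrowly (edgeR adjusted p = 0.041, 0.035 and 0.04). Uqcrc2, the other core protein, fell in BL6J alone by the test (-0.32 ± 0.11, lost under 17 alternatives), with -0.18 ± 0.12 in AJ-F1 and -0.02 ± 0.13 in CAST-F1. Uqcrh, the hinge protein beside cytochrome c1, and Uqcrq, a small membrane subunit, passed in AJ-F1 alone (-0.54 ± 0.15 and -0.50 ± 0.17). The Uqcrh call was lost under 2 alternatives (adjusted p up to 0.12) and the Uqcrq call under 7 (up to 0.21; 0.056 with a replicate block). Uqcrb, a subunit that contacts cytochrome b, passed in none (-0.33 to -0.43), nor did Uqcr10, another small subunit (-0.13 to 0.15).

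Uqcc1, a factor that binds newly made cytochrome b, was the one factor of the 18 that fell in every background. It had 88.1, 80.9, 99.1 and 93.8 CPM in BL6J KO libraries, against 145, 133, 123 and 131 CPM in BL6J WT, and its KO and WT libraries did not overlap in AJ-F1 or CAST-F1 either. The changes were -0.56 ± 0.13, -0.50 ± 0.14 and -0.53 ± 0.15 in BL6J, AJ-F1 and CAST-F1 (edgeR adjusted p = 0.0024, 0.0087 and 0.011). Its partner Uqcc2 was at 0.23 ± 0.18, -0.50 ± 0.20 and 0.00 ± 0.21, and Uqcc3, which acts later, at 0.27 ± 0.18, -0.14 ± 0.19 and 0.09 ± 0.20, none of which passed. The Uqcrc1 calls were lost with a replicate block (adjusted p = 0.064, 0.084 and 0.061 in the order of backgrounds above). Single libraries also ended calls of Uqcrc1, Uqcr11 and Uqcc1, as listed in the closing section.

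Of the 7 subunits of complex IV among the 53, 2 fell in BL6J, 5 in AJ-F1 and 1 in CAST-F1, and none rose. Of its 10 factors among the 53 none fell, Cox19 rose in every background, Cox16 rose in BL6J and CAST-F1, and the other 8 passed in no background. The difference between subunits and factors was not tested. The median change over the 17 genes was near 0 in each background (0.02 in BL6J, 0.01 in AJ-F1 and -0.03 in CAST-F1).

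Cox6c, a small subunit at the surface of the complex (chromosome 15, 35925886 to 35938246, minus strand), had 579, 540, 535 and 500 CPM in BL6J KO libraries, against 803, 787, 885 and 668 CPM in BL6J WT. It had 587, 600 and 459 CPM in AJ-F1 KO, against 1146, 855, 893 and 1162 CPM in AJ-F1 WT. In CAST-F1 it had 677, 793 and 869 CPM in KO, against 1283, 1394 and 1001 CPM in WT. The KO libraries were below the WT libraries in each background. Cox6c fell by 0.54 ± 0.14, 0.89 ± 0.15 and 0.65 ± 0.16 on the log2 scale in BL6J, AJ-F1 and CAST-F1 (edgeR adjusted p = 0.0062, 0.0002 and 0.0054). Of the other subunits, Cox7c (-0.58 ± 0.15), Cox5b (-0.36 ± 0.13) and Cox6b1 (-0.43 ± 0.14) fell in AJ-F1 alone by the test, and Cox5a and Cox7b passed in none. The Cox7c call was lost with only the AJ-F1 libraries in the fit (adjusted p = 0.081), the Cox6b1 call under 5 alternatives (up to 0.21) and the Cox5b call under 15 (up to 0.24; 0.059 with a replicate block).

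Cox6b2, an isoform of subunit VIb best known from testis, was scarce and had the largest fold change of the 53 genes. It had 2, 1, 0 and 1 reads in BL6J KO libraries, against 7, 13, 7 and 27 reads in BL6J WT. It had 2, 3 and 3 reads in AJ-F1 KO, against 23, 20, 38 and 40 reads in AJ-F1 WT. The CAST-F1 libraries had 0, 1 and 0 reads in KO, against 4, 11 and 1 reads in WT. The groups were apart in BL6J and AJ-F1. Cox6b2 fell there by 3.66 ± 0.73 and 3.13 ± 0.64 on the log2 scale (edgeR adjusted p = 0.00078 and 0.001). In CAST-F1 the KO level was 8.26% of the WT level, with a 95% exact counting interval of 0.197 to 53.2%. The interval rests on pooled reads (1 in KO, 16 in WT) and leaves out the spread between libraries. The edgeR test, which takes in that spread, did not pass (adjusted p = 0.063). No KO library of the series had more than 3 reads, so Cox6b2 passed the low-count filter through WT libraries alone. The size and direction of its change are thus not independent of that filter.

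Cox19, a small protein of the intermembrane space that serves copper delivery to the oxidase (chromosome 5, 139336189 to 139351418, minus strand), was the one gene of the 53 that rose in every background. It had 53.3, 48.4, 67.1 and 49.6 CPM in BL6J KO libraries, against 28.4, 23.3, 20.03 and 23.5 CPM in BL6J WT. In AJ-F1 it had 43.3, 31.8 and 34.8 CPM in KO, against 24.3, 22.8, 22.3 and 22.9 CPM in WT. In CAST-F1 it had 55.2, 50.2 and 50.5 CPM in KO, against 23.3, 24.3 and 23.1 CPM in WT. Every KO library of the series was above every WT library of the series. Cox19 rose by 1.19 ± 0.14 in BL6J, 0.67 ± 0.15 in AJ-F1 and 1.14 ± 0.16 in CAST-F1 (edgeR adjusted p = 1.1e-06, 0.0019 and 1.9e-05). Of all genes tested, 5.99% rose in all 3 backgrounds.

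Cox16, which helps copper reach subunit 2, had 29.4, 21.4, 19.6 and 23.1 CPM in BL6J KO libraries, against 15.4, 13.4, 15.5 and 14.4 CPM in BL6J WT. It rose in BL6J (0.67 ± 0.19) and CAST-F1 (0.63 ± 0.22), and was at 0.08 ± 0.20 in AJ-F1 (edgeR adjusted p = 0.014, 0.049 and 0.79). The CAST-F1 call was lost under 20 of 29 alternatives (adjusted p up to 0.17), the BL6J call without BL6J KO library 1 (0.064). Its exons overlap those of another annotated gene on the same strand. Cox18, an insertase for subunit 2, passed only in the mean of the 3 backgrounds (0.33 ± 0.12, adjusted p = 0.027). The heme A enzymes Cox10 and Cox15, the copper proteins Cox11 and Cox17, and Cox14 and Cox20, which attend subunits 1 and 2, passed in no background, with changes from -0.24 to 0.43. Cox7a2l, a factor linked to supercomplexes of complexes III and IV, had 357, 359, 309 and 321 CPM in BL6J KO, against 341, 307, 304 and 253 CPM in BL6J WT. Its changes of 0.16 ± 0.11, 0.08 ± 0.12 and 0.20 ± 0.13 passed in no background (edgeR adjusted p = 0.35, 0.64 and 0.3).

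**Figure D2:**
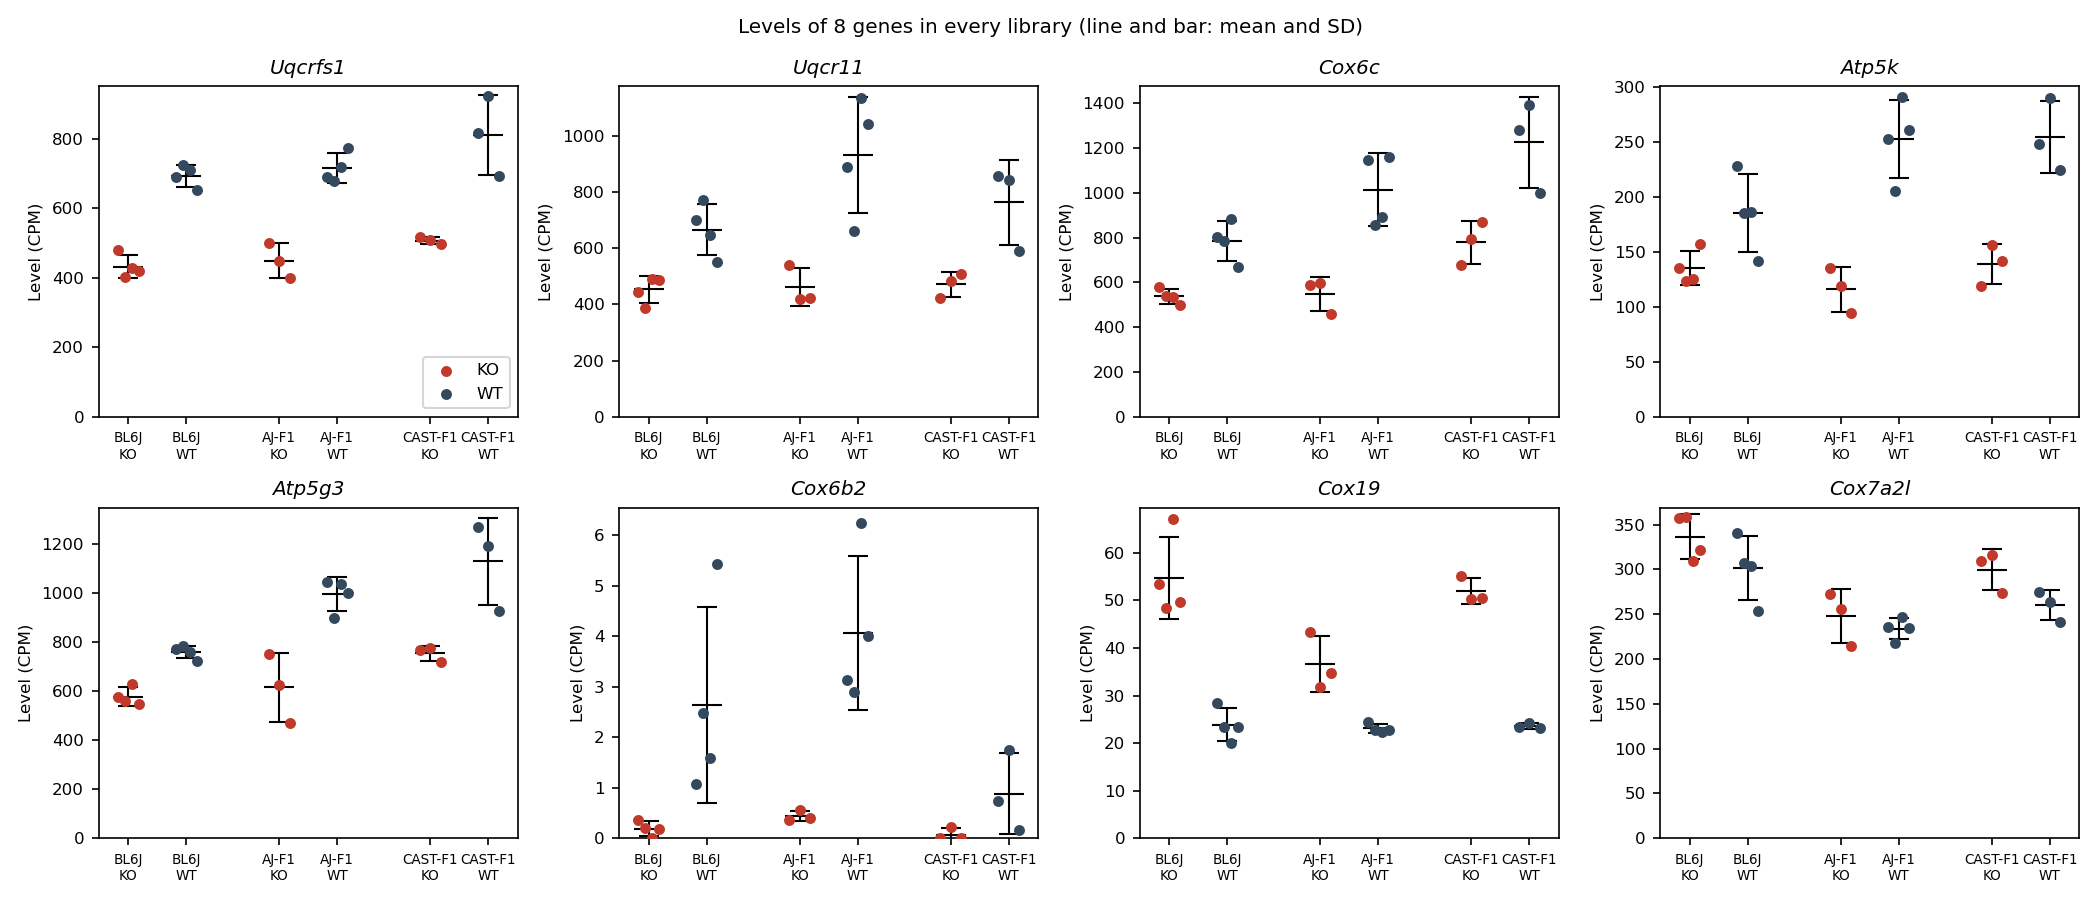
Level in CPM (vertical axes from 0) of 8 genes in every library, with KO (red) left of WT (dark) in each background; the line and bar give the mean and SD. KO libraries of Uqcrfs1 and Cox6c lie below the WT libraries of their background, KO libraries of Cox19 lie above, and those of Cox7a2l overlap.

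In complex V, 5 of the 16 subunits among the 53 fell in BL6J, 8 in AJ-F1 and 4 in CAST-F1, counted here by part of the enzyme. Of the 8 genes of the stalk and membrane part, 3 fell in BL6J, 6 in AJ-F1 and 3 in CAST-F1. Of the 5 genes of the F1 head, where ATP is made, 1 fell in BL6J, 1 in AJ-F1 and 0 in CAST-F1. Of the 3 genes for the proton-carrying c-ring, 1 fell in each.

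Atp5k, the e subunit that sits where ATP synthases pair up (chromosome 5, 108433244 to 108434448, minus strand), had 135, 124, 125 and 158 CPM in BL6J KO libraries, against 228, 186, 186 and 142 CPM in BL6J WT. In AJ-F1 it had 135, 119 and 94.5 CPM in KO, against 252, 205, 291 and 261 CPM in WT. In CAST-F1 it had 119, 156 and 142 CPM in KO, against 248, 290 and 225 CPM in WT. The groups overlapped by 1 WT library in BL6J and were apart in the other backgrounds. Atp5k fell by 0.45 ± 0.16, 1.12 ± 0.17 and 0.87 ± 0.18 on the log2 scale (edgeR adjusted p = 0.038, 5.3e-05 and 0.0013), and the BL6J call was lost with a replicate block (adjusted p = 0.064). Atp5h, the d subunit of the side stalk and the gene whose NRF1 core is printed above, fell by 0.37 ± 0.13, 0.55 ± 0.14 and 0.44 ± 0.15, and Atp5j, coupling factor 6 of the same stalk, by 0.40 ± 0.13, 0.51 ± 0.14 and 0.47 ± 0.15. The CAST-F1 call of Atp5h was lost with the replicate block (adjusted p = 0.053) and with 5 of the libraries left out in turn (up to 0.16), and its BL6J call with 8 of them (up to 0.13). KO and WT libraries of Atp5h and Atp5j did not overlap in any background. The exons of Atp5j overlap those of Gabpa on the opposite strand. The f subunit Atp5j2, the g subunit Atp5l and the small membrane protein Atp5mpl fell in AJ-F1 alone by the test (-0.52 ± 0.16, -0.43 ± 0.14 and -0.49 ± 0.16; each call lost under 4 alternatives), while the b subunit Atp5f1 and Atp5o, the protein that links stalk and head, passed in no background. Atp5s, coupling factor B, passed in the mean of the 3 backgrounds alone (-0.29 ± 0.10).

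Within the catalytic head the genes differed in their calls. Atp5a1, the alpha subunit, had 3035, 2801, 3188 and 3024 CPM in BL6J KO libraries, against 4382, 3863, 4249 and 4219 CPM in BL6J WT, and fell there by 0.47 ± 0.11 on the log2 scale (edgeR adjusted p = 0.0021). Its changes were -0.28 ± 0.11 in AJ-F1 and -0.27 ± 0.12 in CAST-F1 and did not pass (adjusted p = 0.072 and 0.12). Atp5b, the catalytic beta subunit and the gene with the highest level per kilobase of the 53 in BL6J WT, had 6186, 5141, 5409 and 5496 CPM in BL6J KO, against 6188, 5821, 6074 and 5919 CPM in BL6J WT. Its changes were -0.11 ± 0.11, 0.00 ± 0.12 and -0.13 ± 0.13, and none passed (adjusted p = 0.53, 1 and 0.52). Atp5e, the epsilon subunit of the central stalk, fell in AJ-F1 alone by the test (-0.73 ± 0.17), and the gamma and delta genes Atp5c1 and Atp5d passed in none.

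The c-ring is built from 1 mature protein that 3 genes encode. Atp5g3 had 575, 558, 630 and 545 CPM in BL6J KO libraries, against 771, 782, 760 and 722 CPM in BL6J WT. In AJ-F1 it had 752, 624 and 470 CPM in KO, against 1045, 896, 1038 and 998 CPM in WT. In CAST-F1 it had 768, 775 and 720 CPM in KO, against 1266, 1189 and 927 CPM in WT. The groups were apart in each background, and Atp5g3 fell by 0.40 ± 0.13, 0.69 ± 0.14 and 0.58 ± 0.15 on the log2 scale (edgeR adjusted p = 0.027, 0.00087 and 0.0066). Atp5g1, at 2213 ± 294 CPM in BL6J KO and 2149 ± 131 CPM in BL6J WT (SD, n = 4 each), and Atp5g2, at 429 ± 38.8 CPM and 410 ± 23.0 CPM in these groups, passed in no background. Of the reads of the 3 genes together, Atp5g3 held 18.1 ± 2.23% in BL6J KO against 22.9 ± 0.59% in BL6J WT, 18.5 ± 0.495% in AJ-F1 KO against 23.3 ± 3.96% in AJ-F1 WT, and 18.2 ± 0.871% in CAST-F1 KO against 25.3 ± 1.77% in CAST-F1 WT. The shares were apart in BL6J and CAST-F1 and overlapped in AJ-F1, where 1 WT library was at 18.1%. How reads shared by these similar genes were counted is not given in the sources used here.

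The complexes can be set side by side by their sums. Sums were taken over the subunit genes of a complex among the 53. For complex II the KO level was 75.5% of the WT level in BL6J, 79.9% in AJ-F1 and 81.2% in CAST-F1. For complex III it was 77.2%, 71.6% and 78.2% in the same order. For these complexes every KO library lay below every WT library of its background. The sums of complex IV were 89.6%, 73.4% and 85.9% of WT, with KO and WT apart in AJ-F1 alone. The sums of complex V were 88.4%, 83.6% and 89.3%, with overlap in AJ-F1 and CAST-F1. In BL6J the highest KO sum (21021.02 CPM) all but equalled the lowest WT sum (21021.81 CPM). The factors of complex IV summed to 113.6%, 105.2% and 107.5% of WT, with every KO library above every WT library in BL6J. These sums are descriptions of the libraries, weighted to the abundant genes, and the differences between complexes were not tested. They cover only part of some complexes. The Cox subunit genes left out at the start are missing from the complex IV sums, and Cyc1 from those of complex III. All 53 genes together made up 3.32 ± 0.141% of all counts in BL6J KO and 3.73 ± 0.0917% in BL6J WT (SD, n = 4 each). The shares were 3.12 to 3.91% in AJ-F1 KO against 4.05 to 4.22% in AJ-F1 WT, without overlap, and 3.93 to 4.26% in CAST-F1 KO against 4.01 to 4.66% in CAST-F1 WT, with overlap. The CAST-F1 overlap came from WT library 3 alone (4.01%), with WT libraries 1 and 2 at 4.66% and 4.64%. The same library alone made the CAST-F1 overlaps of the subunit sums. For complex IV it had 6731 CPM, against 8631 and 8612 CPM in WT libraries 1 and 2. For complex V it had 22504 CPM, against 28188 and 28490 CPM.

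**Figure D3:**
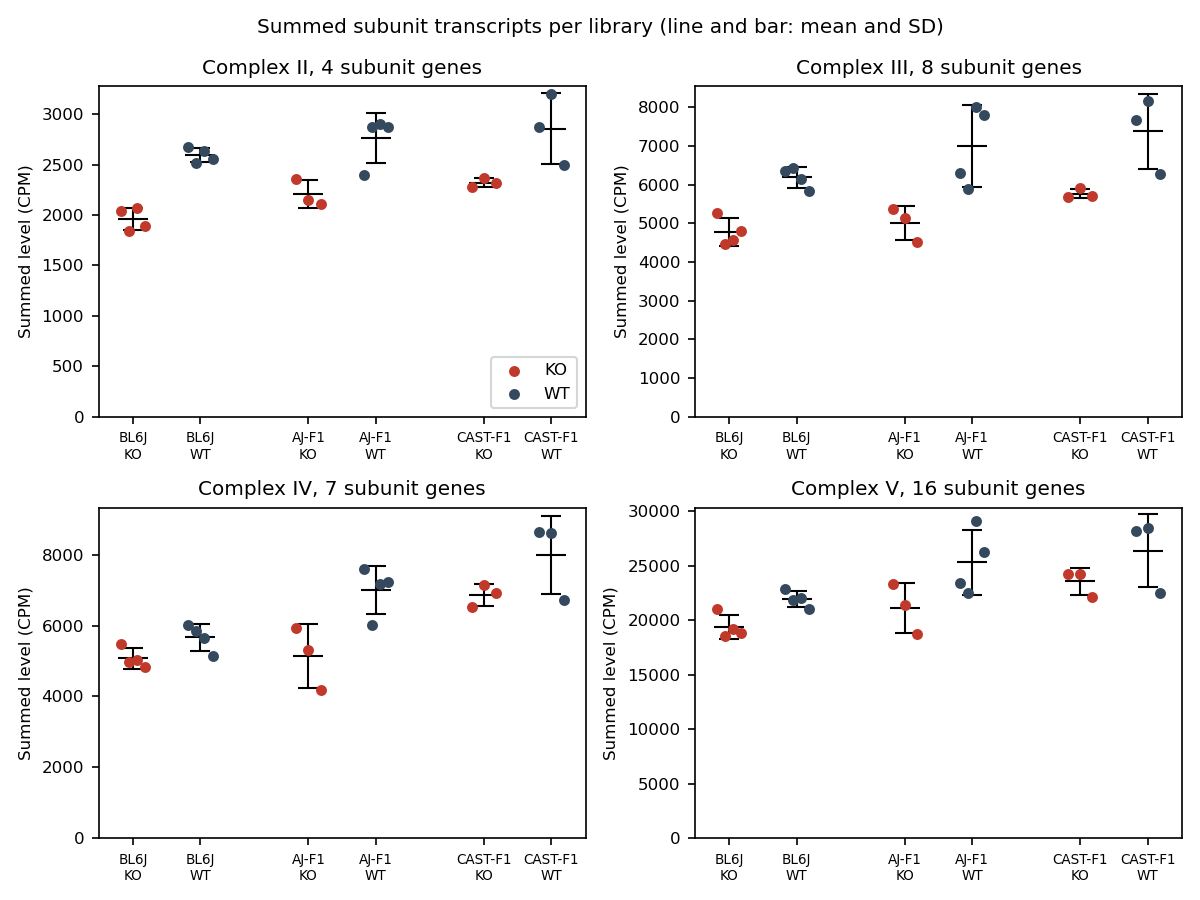
Summed CPM of the subunit genes of each complex among the 53 (vertical axes from 0) in every library. KO (red) stands left of WT (dark) in each background, and the line and bar give the mean and SD. KO and WT are apart in all 3 backgrounds for complexes II and III, and in AJ-F1 for complex IV; for complex V they overlap in AJ-F1 and CAST-F1 and touch in BL6J (21021.02 CPM in KO, 21021.81 CPM in WT).

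**Figure D4:**
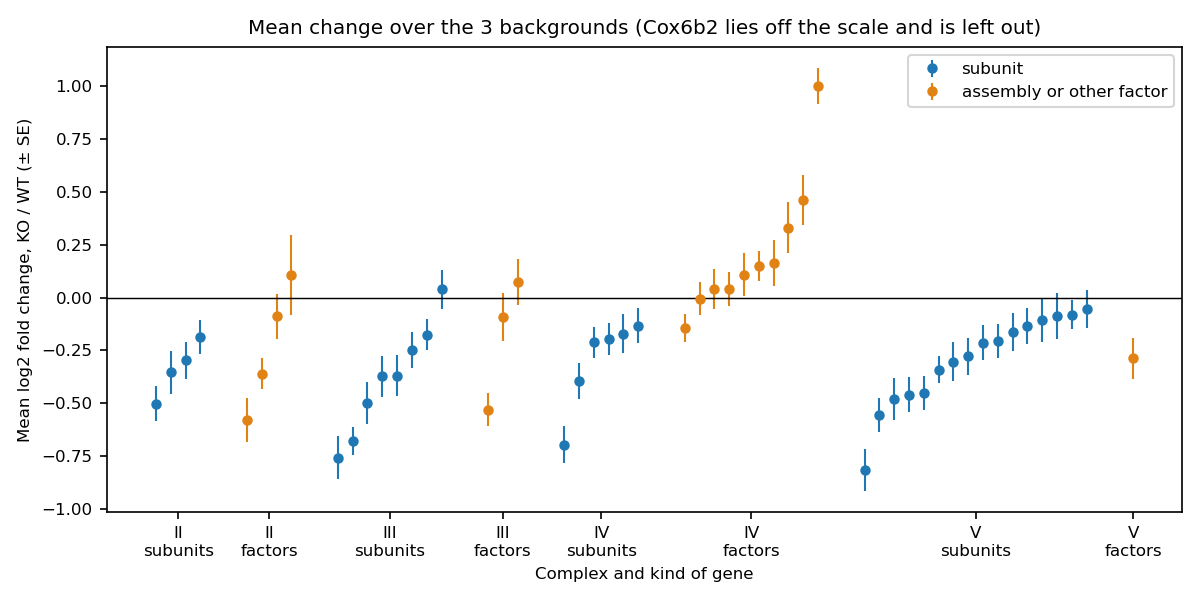
Mean log2 fold change of KO against WT over the 3 backgrounds, with its standard error, for each gene but Cox6b2 (-3.35), by complex and kind of gene. The 34 subunits shown lie below 0 apart from Uqcr10 (0.04), and the complex IV factors run up to Cox19 (1.00).

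Across backgrounds, 9 of the 53 genes fell in all 3 (Uqcrfs1, Uqcr11, Uqcrc1, Uqcc1, Cox6c, Atp5g3, Atp5h, Atp5j and Atp5k), where 4.77% of all genes tested did. A further 3 fell in 2 backgrounds, 14 in 1 and 27 in none. For these counts no share of all genes is given here, so they are not read as a trait of the 53 genes. The changes of the 53 genes correlated across genes with r = 0.88 between BL6J and AJ-F1, 0.96 between BL6J and CAST-F1 and 0.91 between AJ-F1 and CAST-F1, and with 0.69, 0.88 and 0.78 without Cox6b2. These comparisons share no libraries, but genes are not independent replicates.

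No gene of the 53 passed the test of a difference between backgrounds. For AJ-F1 minus BL6J, 0 passed in edgeR, DESeq2 or limma-voom (0.00811% of all genes passed in edgeR). An unadjusted p below 0.05 was found for 9 in edgeR (17.0%, against 11.1% of all genes), 9 in DESeq2 and 7 in limma-voom. For CAST-F1 minus BL6J, 0 passed in any of the 3 tools (0.0324% of all genes in edgeR), with 0, 0 and 5 below an unadjusted p of 0.05 in the same order of tools (4.84% of all genes in edgeR). For CAST-F1 minus AJ-F1, 0 passed in any (0.0892% of all genes in edgeR). The counts below an unadjusted p of 0.05 were 2, 3 and 3 (in edgeR 3.77%, against 9.88% of all genes). The smallest adjusted p was that of Atp5k, whose change in AJ-F1 was lower by 0.67 ± 0.23 than in BL6J (edgeR adjusted p = 0.32). The larger count of calls in AJ-F1 is thus not shown to be a larger effect there. In AJ-F1, 9 of 9 fibroblast markers and 10 of 12 endothelial markers also passed as lower. The fibroblast markers added up to 739 to 812 CPM in AJ-F1 KO against 1320 to 2449 CPM in AJ-F1 WT, and the endothelial markers to 1084 to 1796 CPM against 1952 to 4173 CPM in these groups, with no marker of these lists at 0. Their part in the AJ-F1 counts was not tested. In BL6J 2 fibroblast and 2 endothelial markers passed as lower, and in CAST-F1 0 and 0. The 12 endothelial markers all had negative changes in each background (median log2 fold change -0.37 in BL6J, -1.05 in AJ-F1 and -0.52 in CAST-F1). Of the 9 fibroblast markers, 5 had negative and 4 positive changes in BL6J, and 8 negative and 1 positive in CAST-F1. No marker of either list passed the test of a difference between backgrounds in the KO change. Of 8 smooth muscle and pericyte markers tested, 1 fell and 1 rose in BL6J, 5 fell and 1 rose in AJ-F1, and 3 fell and 1 rose in CAST-F1. With the ninth marker, which was not tested, they added up to 1775 to 3469 CPM in BL6J KO against 1555 to 1809 CPM in BL6J WT, to 1689 to 1744 CPM in AJ-F1 KO against 1394 to 1915 CPM in AJ-F1 WT, and to 1618 to 1816 CPM in CAST-F1 KO against 1242 to 1797 CPM in CAST-F1 WT. The part of these markers was not tested either. Of the 8 genes of the skeletal muscle list, 5 were in the table and 1 was tested. That gene fell in AJ-F1 and CAST-F1, and alone it gives no measure of skeletal muscle content. Among 2 adipocyte markers tested, 1 rose in BL6J. Markers of macrophages, atrium and blood passed in no background.

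Among WT hearts, the backgrounds themselves differed in a few of these genes. Of all genes tested, 5.73% differed between WT CAST-F1 and WT BL6J hearts, 3.36% higher and 2.37% lower in CAST-F1. Of the 53 genes, 0 were lower and 8 (15.1%) were higher in WT CAST-F1 hearts. They were Uqcrh, Cox5a, Cox5b, Cox6c, Cox7c, Cox14, Cox17 and Atp5g3. Cox14, which guides the making of subunit 1, had 143, 151 and 120 CPM in WT CAST-F1, against 96.1, 87.9, 86.5 and 72.8 CPM in WT BL6J, with no overlap (0.68 ± 0.14, edgeR adjusted p = 0.005). Cox6c was higher by 0.64 ± 0.15 (adjusted p = 0.012) and Atp5g3 by 0.57 ± 0.14 (adjusted p = 0.014). Against WT AJ-F1, WT CAST-F1 hearts had Cox14 higher (0.72 ± 0.14, 2.26% of all genes) and Cox6b2 lower (-2.13 ± 0.57, 3% of all genes). These 2 of the 53 are 3.77%, where 5.26% of all genes differed in either direction. Cox6b2 had only 4, 11 and 1 reads in WT CAST-F1. Its call was lost with the replicate block and without AJ-F1 WT library 3 or 4 or CAST-F1 WT library 1 or 3. Both calls were lost with only these groups in the fit. Between WT AJ-F1 and WT BL6J, 0 of the 53 passed in edgeR (1.26% of all genes lower and 1.99% higher, 3.26% in all), 0 in limma-voom and 3 in DESeq2. An unadjusted p below 0.05 in edgeR was found for 23 of the 53 (43.4%), against 22.4% of all genes. Without AJ-F1 WT library 2, 18 passed, and without CAST-F1 WT library 1 or 2 the count for CAST-F1 against BL6J was 1. Shares of all genes in these other fits are not given here. Counts in the F1 hearts can also be affected by how reads with strain alleles align to the reference.

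Genes of the same pathway outside these symbols, from a list of 44 of which 41 were tested, are counted beside all genes. In BL6J 9 fell (22.0%, against 9.51% of all genes) and 2 rose (4.88%, against 12.8%). In AJ-F1 10 fell (24.4%, against 15.7%) and 1 rose (2.44%, against 12.9%). In CAST-F1 5 fell (12.2%, near the 9.59% of all genes) and 1 rose (2.44%, against 10.7%). Of 7 tested genes for further subunits and electron carriers 1 fell in BL6J, 5 in AJ-F1 and 1 in CAST-F1. All 7 fell in the mean of the 3 backgrounds, where 24.2% of all genes did. Among them, with the change in the mean, were Cyc1, the cytochrome c1 of complex III (-0.28 ± 0.08), and Cycs, cytochrome c itself (-0.29 ± 0.08). Another was Etfdh, which feeds electrons from fatty acid oxidation to coenzyme Q (-0.73 ± 0.10). Of 12 genes for coenzyme Q synthesis 5 fell in BL6J, 3 in AJ-F1 and 3 in CAST-F1. Coq8a, a kinase-like protein needed for that synthesis, fell by 0.78 ± 0.16, 0.66 ± 0.17 and 1.00 ± 0.18 in these backgrounds. Of 14 further complex IV assembly and mRNA factors 1 fell and 1 rose in BL6J, 1 fell in AJ-F1 and 0 passed in CAST-F1. Of 5 complex V assembly and inhibitor genes 2 fell and 1 rose in BL6J, the riser being Atpif1, the inhibitor of ATP hydrolysis (0.52 ± 0.17). Of 3 complex III assembly genes, Lyrm7, which holds the Rieske protein before insertion, rose in AJ-F1 (0.62 ± 0.17) and CAST-F1 (0.54 ± 0.19) and was the only one that passed.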

How the data were processed

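The authors deposited raw read counts per gene and library in 1 table, which were used for all tests; 42 columns of variance-stabilised values and z-scores were not used. Per the submitters' processing notes the tools were HISAT, featureCounts and DESeq2 with GRCm38.p6; their versions, settings and use of strand are not given in the sources used here. Per the labels the libraries were stranded. The genes and lists were chosen with earlier results of these data known.

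Of 14732 genes, 12333 passed filterByExpr and held 99.9% of the counts. All 21 libraries were fitted together with 6 group means by edgeR's quasi-likelihood test with TMM factors of 0.860 to 1.07 (edgeR 4.0.16, limma 3.58.1, R 4.3.3), two-sided, with Benjamini-Hochberg adjustment and a threshold of 0.05. edgeR's common dispersion corresponds to a coefficient of variation of 20.3%. Within groups, libraries correlated with r of 0.895 to 0.983 over 27 pairs and none were identical. CPM are scaled by TMM factors. Genes were given in full by rule: in each complex the 2 of smallest p in each direction in the mean of backgrounds, those called in all 3, those that rose, the leading WT differences and a panel of 13. Positions are from GENCODE M21, promoters from RefSeq. Alternatives were other size factors, other filters, DESeq2 1.42.0, limma-voom with sample weights, a fit of only the groups compared, a replicate block, and each library left out in turn.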

Additional observations from a re-analysis of the deposited data

Results flagged for a closer look

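In groups of 4 libraries, the gap of the highest or lowest library to its neighbour was compared with the range of the group by Dixon's ratio, over 158 groups of 53 genes with a mean of at least 1 CPM. In 6 groups the ratio passed its critical value, and chance flags about 1 in 20 groups. Cox14 was at 93.7 CPM in AJ-F1 WT library 1, with the other 3 at 80.0 to 81.2 CPM. Cox5a was at 798 CPM in BL6J WT library 1, above 687 to 702 CPM in the others, and at 983 CPM in AJ-F1 WT library 1, above 809 to 831 CPM. Cox7b was at 599.6 CPM in BL6J KO library 4, below 692 to 704 CPM. Atp5f1 was at 539.9 CPM in AJ-F1 WT library 3, below 714 to 730 CPM, and Atp5l was at 558 CPM in AJ-F1 WT library 2, below 653 to 671 CPM. Among the single-background KO against WT comparisons and the WT against WT comparisons that use the library named, these genes passed in 3: Cox5a in WT CAST-F1 against WT BL6J, Cox14 in WT CAST-F1 against WT AJ-F1, and Atp5l in AJ-F1 KO against WT.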

How the results depend on the processing

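Among the 37 calls of the 23 genes given in full, 19 held under every alternative that gave a value (29, or 28 for Cox6b2 in BL6J, which was filtered out with only its groups) and 0 reversed. The count of genes called in AJ-F1 KO against WT was 7 with only its groups in the fit (24 in the full fit). In CAST-F1 it was 24 with limma-voom and 19 with only its groups (11 in the full fit). For WT AJ-F1 against WT BL6J it was 3 with DESeq2, for WT CAST-F1 against WT BL6J 27 with limma-voom and 18 with only its groups, and for WT CAST-F1 against WT AJ-F1 4 with DESeq2, 0 with only its groups and 1 with the replicate block. Shares of all genes under these alternatives, or with libraries left out, are not given here. A shift in the calls of all genes thus cannot be told from a shift in these genes. The cause was not tested.

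With each library left out in turn, the counts ran from 10 to 19 in BL6J, 13 to 28 in AJ-F1, 5 to 13 in CAST-F1 and 27 to 34 in the mean. They stayed at 0 for differences between backgrounds, and ran from 0 to 18 for WT AJ-F1 against WT BL6J, 1 to 12 for WT CAST-F1 against WT BL6J and 1 to 6 for WT CAST-F1 against WT AJ-F1. BL6J had 11 without KO library 1 or 4 and 10 without WT library 2 or 3. AJ-F1 had 15 without KO library 2 and 13 without KO library 3. CAST-F1 had 5 without KO library 1 or WT library 1, 7 without KO library 2 and 6 without WT library 2. WT AJ-F1 against WT BL6J had 18 without AJ-F1 WT library 2. WT CAST-F1 against WT BL6J had 5 without BL6J library 2, 3 without BL6J library 3 or 4 and 1 without CAST-F1 library 1 or 2. WT CAST-F1 against WT AJ-F1 had 4 without AJ-F1 library 1, 6 without AJ-F1 library 2, and 1 without AJ-F1 library 3 or 4 or CAST-F1 library 1 or 3. The complex medians stayed within 1 SD of the spread between libraries.

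Single libraries ended these calls. Uqcr11 was lost in BL6J without WT library 2 (adjusted p = 0.058) and in CAST-F1 without KO library 1 or WT library 1 (up to 0.059). Uqcc1 was lost in AJ-F1 without KO library 2 (0.061) and in CAST-F1 without KO library 1 or WT library 1 or 2 (up to 0.068). Uqcrc1 was lost in BL6J without AJ-F1 KO library 1, any CAST-F1 KO library or any BL6J library but KO library 1 (up to 0.12), in AJ-F1 without any KO library or WT library 3 or 4 (up to 0.11; 0.35 with limma-voom), and in CAST-F1 without AJ-F1 KO library 1 or any CAST-F1 library but WT library 3 (up to 0.15). In BL6J, Atp5k was lost without any library but KO 4 and WT 4 (up to 0.15), Atp5g3 without any but KO 3 and WT 4 (up to 0.078), and Atp5j without KO 1 or 4 or WT 2 or 3 (up to 0.099). Atp5j was lost in AJ-F1 without KO library 3 (0.067) and in CAST-F1 without KO 1 or 2 or WT 1 or 2 (up to 0.16). Atp5h was lost in BL6J without CAST-F1 KO library 1 or any BL6J library but KO 1 (up to 0.13), and in CAST-F1 without any library but WT 3 (up to 0.16). In AJ-F1, Cox5b was lost without KO 2 or 3, WT 1, 3 or 4, BL6J WT 2 or 3, CAST-F1 KO 2 or 3 or CAST-F1 WT 1, Uqcrq without KO 2 or 3 or WT 3 or 4, Cox6b1 without KO 2 or 3 or WT 1 or 3, and Uqcrh without KO 3. With only the AJ-F1 groups in the fit, AJ-F1 calls of Uqcc1 (0.12), Atp5j (0.13), Atp5g3 (0.053), Cox5b (0.24), Uqcrq (0.21), Cox6b1 (0.21) and Uqcrh (0.12) were lost, among others. Of all 52 calls, 24 held with each library left out.

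Whether replicate numbers mark pairs or a shared batch cannot be told from these values. Over 48 pairs of equal number the median correlation of deviations was -0.01 (-0.35 to 0.19), beside 0.00 for other numbers. The highest correlation of 10 of 21 libraries was with their own number, and no chance level was computed for this count. Calls lost with the replicate block were Uqcrc1 in each background, Atp5k (0.064) and Uqcrc2 (0.069) in BL6J, Cox16 (0.054) and Atp5h (0.053) in CAST-F1, and Cox5b (0.059), Uqcrq (0.056), Sdhaf2 (0.059) and Sdhaf4 (0.11) in AJ-F1. Depth limits the precision of scarce genes such as Cox6b2.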
